A study of Sus scrofa with 6 samples.

Results

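Transforming growth factor beta (TGF-beta) and bone morphogenetic protein (BMP) genes, together with genes that control breakdown of the extracellular matrix, were followed in porcine uterine epithelium exposed to seminal exosomes. The members were the rows of the deposited table named TGFB1, SMAD2, ID1, ID2, TIMP-2, PLAUR and MMP7. These 7 names matched 8 rows out of 10916, because SMAD2 named 2 of them. The members were chosen by name, with their FPKM values in the exosome and control libraries already known, so their levels are given as a description. They entered the fit over all genes, but no p-value is given for them and a call from that fit is not used as evidence about them.

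The exosome group (EXO) was endometrial epithelial cells of Sus scrofa that received 10 µg of exosome protein per well for 48 h. The exosomes had been precipitated from the sperm-rich fraction of porcine seminal fluid and suspended in PBS. The control group (CTRL) was the same kind of culture without exosomes, and no label says whether it received the PBS alone. The labels also give no culture time for the control group. Both groups were primary cultures from slaughterhouse uteri at passage 3, in medium with 10% fetal bovine serum, and each group held 3 RNA sequencing libraries. The labels do not tell if replicate libraries stem from different uteri, different wells or one pool, so the spread between them may be technical.

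TGF-beta ligands bind paired serine/threonine kinase receptors, which phosphorylate SMAD2 and SMAD3, and these enter the nucleus with SMAD4. BMP ligands use related receptors and SMAD1, SMAD5 and SMAD9, and the ID genes are the best known BMP targets. ID proteins bind E proteins and keep them off DNA, which restrains differentiation. In the uterus, TGF-beta signalling, matrix metalloproteinases and their inhibitors, and the plasminogen activators take part in the tissue remodelling that goes with the cycle and with implantation.

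Levels were FPKM (fragments scaled to the length of the transcript and to the size of the library), so they can be set beside each other across genes. A difference between groups was the fitted EXO minus CTRL difference on the log2(FPKM + 1) scale, given with its standard error (SE). Sums of FPKM ran from 690300 to 711300 in the EXO libraries and from 721300 to 732900 in the CTRL libraries, and the read depth is unknown. Keratins KRT8, KRT18 and KRT19 led the epithelial markers, of which 7 of 8 were measured, and these summed to 8133 to 8941 FPKM in EXO and 9203 to 9532 FPKM in CTRL libraries. Of 9 stromal markers, 5 were measured, with sums of 2274 to 2494 FPKM in EXO and 2788 to 3042 FPKM in CTRL libraries, most of it THY1. The defining markers CDH1 of epithelium and PDGFRA, PDGFRB, DCN and LUM of stroma were sought by symbol, and no row with values matched them. Of 4 leukocyte markers, 2 were measured, with sums of 8.06 to 11.12 FPKM in EXO and 9.78 to 11.8 FPKM in CTRL libraries. Of 4 endothelial markers, only KDR was measured, at 0.968 to 1.16 FPKM in EXO and 1.26 to 1.96 FPKM in CTRL libraries, and of 4 smooth muscle markers none was. The part of these shifts in the results below was not tested.

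The levels of the members spanned a wide range, and the order of their means was the same in both groups. MMP7, at a mean of 2395 FPKM in EXO and 2555 FPKM in CTRL libraries, was the 38th most abundant of the 10846 genes that entered the fit. PLAUR, TIMP-2, ID1 and ID2 followed, then both rows named SMAD2, and TGFB1 was last at a mean of 4.22 FPKM in EXO and 5.11 FPKM in CTRL libraries. PLAUR overlapped TIMP-2 in the EXO libraries and not in the CTRL libraries. ID1 and ID2 overlapped in the CTRL libraries, at 94.0 to 105 FPKM for ID1 against 91.6 to 96.1 FPKM for ID2, and were apart in the EXO libraries. All other neighbours in the order were apart in both groups.

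**Figure D1:**
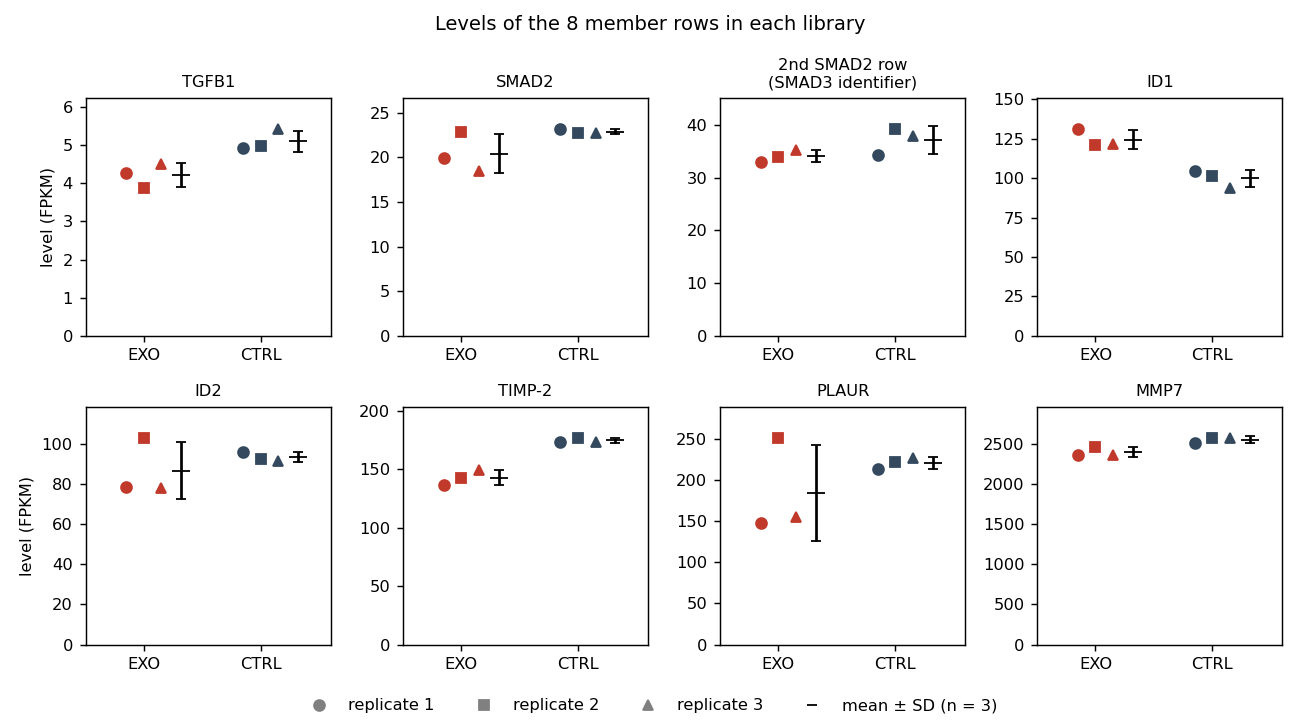
Level in FPKM (vertical axis, linear from 0) of each member row in the 3 EXO libraries (red) and the 3 CTRL libraries (dark), with symbols for the replicate number and black marks for the mean ± SD. ID1 lay higher and TGFB1, TIMP-2 and MMP7 lay lower in every EXO library than in any CTRL library as deposited, while ID2 and PLAUR had 1 EXO library (replicate 2) above all CTRL libraries. With quantile normalization the MMP7 difference changes sign.

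TGFB1 encodes the ligand TGF-beta 1. RefSeq places the gene on chromosome 6 of Sscrofa11.1, from 49332169 to 49348642. Its level was 4.28, 3.89 and 4.50 FPKM in EXO replicates 1, 2 and 3, against 4.92, 4.97 and 5.43 FPKM in CTRL replicates 1, 2 and 3. All EXO libraries lay below all CTRL libraries, with EXO replicate 2 the lowest. In these bulk samples, fewer cells that express a gene and less of its RNA per cell cannot be told apart. The means were 4.22 ± 0.309 FPKM in EXO and 5.11 ± 0.280 FPKM in CTRL libraries (SD, n = 3 each), a log2 difference of -0.23 with an SE of 0.08. At this low level the pseudocount of 1 shrinks the difference.

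SMAD2 is a receptor-activated SMAD of the TGF-beta and activin branch, and RefSeq places it on chromosome 1 of Sscrofa11.1, from 97415360 to 97511388. The row with the SMAD2 identifier ENSSSCG00000004505 was at 19.9, 22.8 and 18.5 FPKM in EXO replicates 1, 2 and 3, against 23.2, 22.7 and 22.7 FPKM in the CTRL replicates. EXO replicates 1 and 3 lay below the CTRL libraries, and EXO replicate 2 lay among them. The log2 difference was -0.16 with an SE of 0.08, and it was -0.24 without EXO replicate 2 and -0.10 without EXO replicate 3.

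The other row named SMAD2, ENSSSCG00000004952, carries an identifier that the reference gene table lists under SMAD3, the second SMAD of the TGF-beta branch. It is therefore described here as the row with the SMAD3 identifier. RefSeq places SMAD3 on the same chromosome as SMAD2, from 164998457 to 165124455. This row was at 33.1, 34.0 and 35.3 FPKM in EXO replicates 1, 2 and 3, against 34.3, 39.3 and 38.0 FPKM in the CTRL replicates. The groups overlapped through CTRL replicate 1. The log2 difference was -0.12 with an SE of 0.06. The ratio of the SMAD3 row to the SMAD2 row averaged 1.69 ± 0.210 in EXO and 1.63 ± 0.131 in CTRL libraries (SD, n = 3 each), and the groups overlapped.

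ID1, an inhibitor of DNA binding that responds to BMP, was the 1 member row that was higher in the EXO libraries. The other 7 were lower in the fit, among them MMP7, which was at 0.02 with quantile normalization. Of all 10846 genes, 5338 were higher and 5508 lower. The members were chosen with these values known, so nothing is read from the count. RefSeq places ID1 on chromosome 17 of Sscrofa11.1, from 35316518 to 35317742. Its level was 131, 121 and 121 FPKM in EXO replicates 1, 2 and 3, against 105, 101 and 94.0 FPKM in the CTRL replicates. All EXO libraries lay above all CTRL libraries, and EXO replicate 1 was the highest. The means were 124.5 ± 5.85 FPKM in EXO and 100.0 ± 5.49 FPKM in CTRL libraries (SD, n = 3 each), which is 1.25-fold higher in EXO (log2 difference 0.31, SE 0.06).

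ID2, the related inhibitor of E proteins, did not follow ID1. RefSeq places it on chromosome 3 of Sscrofa11.1, from 127500759 to 127503207. Its level was 78.4, 103 and 78.1 FPKM in EXO replicates 1, 2 and 3, against 96.1, 92.6 and 91.6 FPKM in the CTRL replicates. EXO replicates 1 and 3 were the lowest of the 6 libraries and EXO replicate 2 was the highest. The log2 difference was -0.12 with an SE of 0.10, and -0.25 without EXO replicate 2, -0.06 without EXO replicate 1 and -0.05 without EXO replicate 3.

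The ratio of ID1 to ID2 within a library was 1.67, 1.17 and 1.55 in EXO replicates 1, 2 and 3, against 1.09, 1.09 and 1.03 in the CTRL replicates. ID1 thus exceeded ID2 in all 6 libraries, and the ratio in each EXO library lay above that of each CTRL library. In EXO replicate 2 the ratio was closest to the controls, and there both ID genes were above their CTRL levels.

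TIMP-2, an inhibitor of matrix metalloproteinases that also helps MMP14 activate pro-MMP2, is placed by RefSeq (as TIMP2) on chromosome 12 of Sscrofa11.1, from 3254794 to 3300835. Its level was 136, 143 and 149 FPKM in EXO replicates 1, 2 and 3, against 173, 177 and 173 FPKM in the CTRL replicates. All EXO libraries lay below all CTRL libraries, and the CTRL libraries lay close together. The means were 142.8 ± 6.55 FPKM in EXO and 174.5 ± 2.04 FPKM in CTRL libraries (SD, n = 3 each), a log2 difference of -0.29 with an SE of 0.05.

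TIMP-2 made up 6.79%, 7.45% and 8.06% of the summed FPKM of the 4 TIMP genes in EXO replicates 1, 2 and 3, against 9.65%, 9.07% and 8.91% in the CTRL replicates. TIMP3, an inhibitor that is bound to the matrix, made up 86.7% to 89.2% of that sum in EXO and 85.1% to 85.9% in CTRL libraries. The shares of both genes did not overlap between the groups, while the summed level did, at 1853 to 2005 FPKM in EXO and 1797 to 1951 FPKM in CTRL libraries. TIMP3 itself was at 1693 ± 90.9 FPKM in EXO and 1623 ± 81.5 FPKM in CTRL libraries (SD, n = 3 each).

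**Figure D2:**
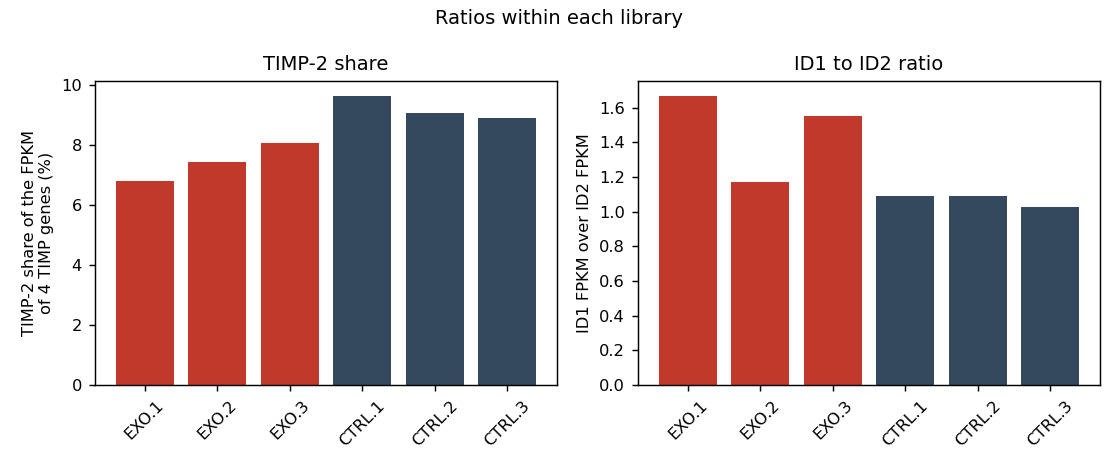
Bars show, for each of the 3 EXO libraries (red) and 3 CTRL libraries (dark), the TIMP-2 share of the summed FPKM of the 4 TIMP genes in percent (left) and the FPKM of ID1 divided by that of ID2 (right). The TIMP-2 share was lower, at 6.79% to 8.06% in EXO against 8.91% to 9.65% in CTRL libraries, and the ID1 to ID2 ratio was higher, at 1.17 to 1.67 in EXO against 1.03 to 1.09 in CTRL libraries.

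PLAUR encodes the urokinase receptor, which holds the plasminogen activator PLAU at the cell surface. RefSeq places it on chromosome 6 of Sscrofa11.1, from 50489773 to 50505453, which is 1.14 Mb from TGFB1. Its level was 147, 251 and 155 FPKM in EXO replicates 1, 2 and 3, against 213, 221 and 227 FPKM in the CTRL replicates. EXO replicates 1 and 3 were the lowest of the 6 libraries and EXO replicate 2 was the highest. The log2 difference was -0.30 with an SE of 0.18, and it was -0.54 without EXO replicate 2, -0.16 without EXO replicate 1 and -0.20 without EXO replicate 3.

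PLAU, the ligand of this receptor, was at 325, 399 and 300 FPKM in EXO replicates 1, 2 and 3, against 367, 378 and 354 FPKM in the CTRL replicates. EXO replicate 2 was again the highest and EXO replicates 1 and 3 the lowest. The ratio of PLAUR to PLAU was 0.453, 0.630 and 0.514 in EXO replicates 1, 2 and 3, against 0.581, 0.586 and 0.642 in the CTRL replicates, and the groups overlapped.

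MMP7, or matrilysin, is a metalloproteinase made by epithelia, and RefSeq places it on chromosome 9 of Sscrofa11.1, from 33214590 to 33225080. Its level was 2363, 2465 and 2356 FPKM in EXO replicates 1, 2 and 3, against 2510, 2576 and 2578 FPKM in the CTRL replicates. All EXO libraries lay below all CTRL libraries in the deposited values, by a margin that was small beside the level. The log2 difference was -0.09 with an SE of 0.04, and 0.02 with quantile normalization. The ratio of TIMP-2 to MMP7 was 0.0576, 0.0579 and 0.0634 in EXO replicates 1, 2 and 3, against 0.0691, 0.0687 and 0.0672 in the CTRL replicates, so TIMP-2 was lower by more than MMP7.

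Across all 10846 genes, limma called 0 at an adjusted p under 0.05, or 0% (1362 genes, or 12.6%, had an unadjusted p under 0.05, with 5.06% higher and 7.5% lower in EXO), and 0 of the 8 member rows were called. The groups did not overlap in 4 of the 8 rows and in 18.7% of all genes. EXO was higher in 1 of these rows (ID1), against 8.29% of all genes, and lower in 3 (TGFB1, TIMP-2 and MMP7), against 10.4% of all genes. Without EXO replicate 2, limma called 2.74% of all genes at an adjusted p under 0.05 (0.857% higher and 1.88% lower in EXO), and 4 member rows, with ID1 higher and ID2, TIMP-2 and PLAUR lower. These counts come from the same contrast as the choice of the members, so nothing is read from them.

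The member rows differed in how EXO replicate 2 stood to the other EXO libraries. Over all genes tested, the SD of the log2 ratio to EXO replicate 2 was 0.24 for EXO replicate 1 and 0.25 for EXO replicate 3. It was 0.23, 0.20 and 0.20 for CTRL replicates 1, 2 and 3, so EXO replicate 2 lay nearer to the CTRL libraries, by small margins. Between EXO replicates 1 and 3 the SD was 0.22. Against CTRL replicates 1, 2 and 3 it was 0.24, 0.26 and 0.26 for EXO replicate 1, and 0.23, 0.24 and 0.24 for EXO replicate 3. For PLAUR, EXO replicate 2 was 0.73 above the mean of EXO replicates 1 and 3 on the log2(FPKM + 1) scale. Of all genes tested, 1.04% had a larger gap of either sign. The gap was 0.39 for ID2, with 6.66% of genes beyond it, and 0.24 for SMAD2, with 20.0% beyond it. It was -0.06 for ID1, 0.06 for MMP7, 0.00 for TIMP-2, -0.01 for the row with the SMAD3 identifier and -0.14 for TGFB1, where the median size of the gap over all genes was 0.114. Measured from the CTRL mean, ID1 lay at 0.39, 0.27 and 0.28 in EXO replicates 1, 2 and 3, and TIMP-2 at -0.36, -0.29 and -0.22. PLAUR lay at -0.58, 0.19 and -0.51, and ID2 at -0.25, 0.14 and -0.25. For these last genes EXO replicate 2 was thus on the other side of the control mean. The members were chosen with this contrast known, so nothing is read from how far their EXO libraries agree.

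**Figure D3:**
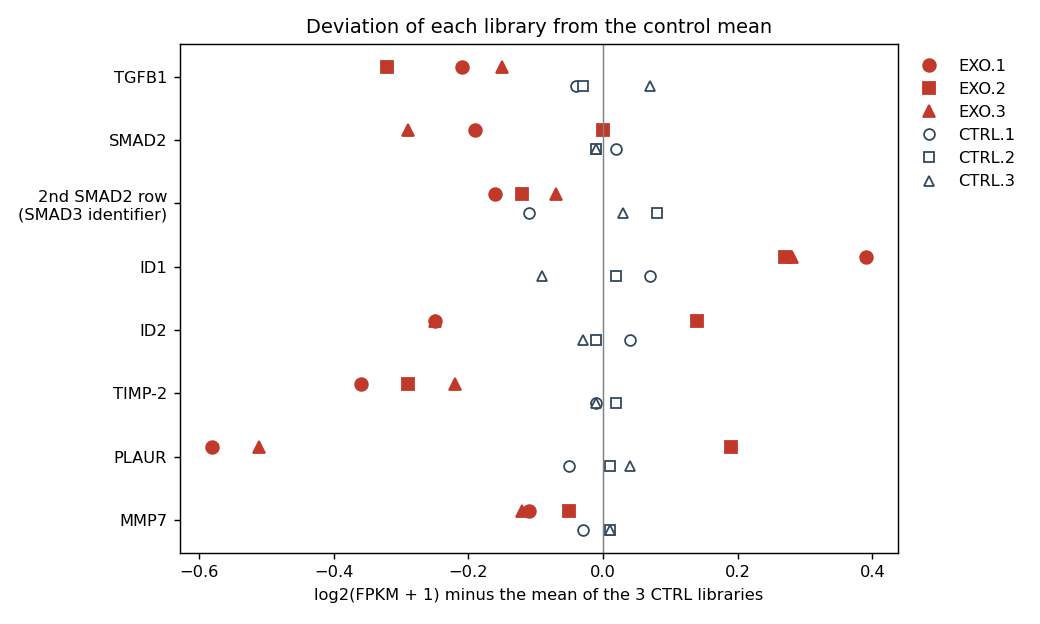
Horizontal axis, log2(FPKM + 1) of each library minus the mean of the 3 CTRL libraries, with the member rows down the page, EXO libraries in filled red and CTRL libraries in open symbols. EXO replicate 2 (red square) lay at 0.19 for PLAUR and 0.14 for ID2, where EXO replicates 1 and 3 lay at -0.58 and -0.51 for PLAUR and at -0.25 each for ID2, while for ID1 the 3 EXO libraries lay between 0.27 and 0.39 and for TIMP-2 between -0.36 and -0.22. The MMP7 points are as deposited, and with quantile normalization its difference changes sign.

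The genes whose values over the 6 libraries lay nearest to each member were sought among genes that have a symbol and average 5 FPKM or more. Distance was the root mean square difference of log2(FPKM + 1), each gene centred on its own mean. Nearest to PLAUR were BHLHE40 (0.047) and DUSP10 (0.068), where the median gene was at 0.30. Nearest to ID2 were CHST4 (0.019) and NPC2 (0.021), with a median gene at 0.16. Nearest to ID1 were FANCI (0.040) and TCOF1 (0.047), with a median gene at 0.19.

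Nearest to TIMP-2 were HID1 (0.020) and MGST3 (0.026), with a median gene at 0.17. Nearest to SMAD2 were FBLIM1 (0.013) and ZYX (0.018), and nearest to the row with the SMAD3 identifier were MTMR14 (0.025) and MBTPS2 (0.027). Nearest to TGFB1 were RCAN3 and SCIN (0.032 each), and nearest to MMP7 were ARF1 (0.011) and SEC24C (0.013). Among the members themselves the smallest distances were between the SMAD3 row and MMP7 (0.059) and between SMAD2 and ID2 (0.063), and the largest was between ID1 and PLAUR (0.42). With so many candidate genes and 6 libraries, small distances arise for any gene, so these are descriptions.

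The other genes of the pathway and of matrix remodelling were taken from 13 lists by role, which held 173 symbols besides the members, and 92 of these entered the fit, in 94 rows. Of the 94 rows, 0 passed an adjusted p of 0.05 over all genes in limma. At an unadjusted p under 0.05 there were 10 (5 higher and 5 lower in EXO), or 10.6% against 12.6% of all genes. The groups did not overlap in 16 of the 94 rows, or 17.0% against 18.7% of all genes. The median log2 difference of the 94 rows was -0.015, against -0.002 for all genes tested. Both shares were close to those of the whole table. Without EXO replicate 2, 35 of the 94 rows stayed within 1.5 times their log2 difference and 36 were over 1.5 times larger. Another 9 were smaller by more than that and 14 changed sign. The median was then -0.052, against -8e-04 for all genes tested. Such counts were not made for all genes or for leaving out another library. Whether the list genes depend on EXO replicate 2 more than other genes do was therefore not tested.

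Among ligands, BMP4 was the most abundant, at 267.7 ± 18.6 FPKM in EXO and 245.8 ± 16.2 FPKM in CTRL libraries (SD, n = 3 each), with overlapping groups. BMP6, a related BMP ligand, was at 31.4 ± 0.379 FPKM in EXO and 31.8 ± 0.529 FPKM in CTRL libraries. TGFB2 was at 4.74, 31.3 and 27.8 FPKM in EXO replicates 1, 2 and 3, against 10.2, 26.3 and 21.5 FPKM in the CTRL replicates, so that replicate 1 was the lowest library of each group. TGFB1 was below TGFB2 in all 6 libraries, and nearly level with it in EXO replicate 1. GDF11 and GDF9, the other ligands measured, had log2 differences of 0.11 and -0.20, and of 0.07 and -0.16 without EXO replicate 2.

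Receptors were 11 in number, with a median log2 difference of 0.05. TGFBR2, the type II receptor that binds TGF-beta, was the most abundant, at 397.7 ± 33.4 FPKM in EXO and 403.4 ± 17.9 FPKM in CTRL libraries (SD, n = 3 each). TGFBR1 and BMPR2 had log2 differences of -0.07 and 0.07, and of -0.17 and 0.04 without EXO replicate 2. BMPR1B is a type I BMP receptor and was named after its values were seen. Its level was 11.7, 13.5 and 13.4 FPKM in EXO replicates 1, 2 and 3, against 8.75, 10.3 and 9.94 FPKM in the CTRL replicates. The BMPR1B groups did not overlap, with a log2 difference of 0.37 that did not pass in limma (adjusted p = 0.234). Groups without overlap were found in 2 of the 11 receptor rows, or 18.2%, against 18.7% of all genes.

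SMADs and their cofactors, 12 rows besides the members, had log2 differences from -0.10 to 0.12, and 0 had an unadjusted p under 0.05. SMAD4, the shared partner of SMAD2 and SMAD3, was at 23.9 ± 0.530 FPKM in EXO and 24.5 ± 0.798 FPKM in CTRL libraries (SD, n = 3 each). The cofactors TFDP1 and E2F4 had log2 differences of 0.07 and 0.02. The SMAD2 and SMAD3 rows were at -0.16 and -0.12, both with overlapping groups, and SMAD6 was at -0.10 with an SE of 0.07. The SMAD2 and SMAD3 rows are members chosen with this contrast known, so nothing is read from the order.

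Inhibitors of the pathway were 10 rows, 3 higher and 7 lower. FST, follistatin, which binds activin, was at 202, 312 and 208 FPKM in EXO replicates 1, 2 and 3, against 219, 235 and 252 FPKM in the CTRL replicates, with EXO replicate 2 the highest as for PLAUR and ID2. TGIF1, a corepressor of SMAD2, was at 118.3 ± 8.78 FPKM in EXO and 131.9 ± 3.85 FPKM in CTRL libraries (SD, n = 3 each), and STRAP had a log2 difference of 0.05. The groups did not overlap for TGIF1 or for STRAP. Groups without overlap were found in 3 of the 10 inhibitor rows, or 30%, against 18.7% of all genes. Genes that store or release latent TGF-beta were 9 rows with a median of 0.01. THBS1, thrombospondin 1, which can activate latent TGF-beta, was at 559.8 ± 64.0 FPKM in EXO and 455.2 ± 55.8 FPKM in CTRL libraries, with groups that did not overlap (log2 difference 0.30, limma adjusted p = 0.338). Such groups were found in 2 of these 9 rows, or 22.2%, against 18.7% of all genes. ITGB1 and FURIN had log2 differences of 0.06 and 0.00, and of 0.02 and -0.04 without EXO replicate 2.

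Among BMP targets besides ID1 and ID2, 2 of 5 rows were higher and 3 lower. ID4, the remaining ID gene in the fit, was named after its values were seen. Its level was 13.9, 13.2 and 12.7 FPKM in EXO replicates 1, 2 and 3, against 12.1, 11.4 and 11.4 FPKM in the CTRL replicates. Its groups did not overlap, with a log2 difference of 0.18 that did not pass in limma (adjusted p = 0.336). It was the 1 of these 5 rows without overlap, or 20%, against 18.7% of all genes. MSX1, a homeobox factor of the uterine epithelium, was at 95.3, 119 and 92.4 FPKM in EXO replicates 1, 2 and 3, against 115, 116 and 117 FPKM in the CTRL replicates, and HES1 and SMAD6 had log2 differences of -0.05 and -0.10, and of -0.08 and -0.11 without EXO replicate 2. The E proteins TCF12 and TCF3, which ID proteins bind, had log2 differences of -0.11 and -0.05, and of -0.15 and -0.13 without EXO replicate 2.

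Among TGF-beta targets, 6 of 11 rows were higher and 5 lower. The groups did not overlap in 2 of the 11, both higher in EXO, or 18.2% against 18.7% of all genes. COL1A1, named after its values were seen, had a log2 difference of -0.84 with an SE of 0.99 and overlapping groups. CCN2, a matrix-associated growth factor, was at 189.6 ± 15.9 FPKM in EXO and 179.9 ± 6.65 FPKM in CTRL libraries (SD, n = 3 each), and MYC had a log2 difference of 0.08. TAGLN, an actin-binding protein, was at 78.5, 140 and 92.5 FPKM in EXO replicates 1, 2 and 3, against 127, 130 and 141 FPKM in the CTRL replicates. EXO replicates 1 and 3 were the lowest libraries for TAGLN, as for PLAUR and ID2.

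Besides MMP7, 6 metalloproteinases entered the fit, all of them far below it. MMP15, a membrane-anchored member, was at 21.8 ± 1.35 FPKM in EXO and 24.9 ± 0.884 FPKM in CTRL libraries (SD, n = 3 each) without overlap, and MMP11 and MMP13 had log2 differences of -0.09 and 0.14, and of -0.15 and 0.04 without EXO replicate 2. The groups did not overlap in 2 of these 6 rows (1 higher and 1 lower in EXO), or 33.3%, against 18.7% of all genes. Besides TIMP-2, the inhibitor TIMP1 was at 74.6, 81.1 and 93.3 FPKM in EXO replicates 1, 2 and 3, against 88.0, 96.1 and 94.7 FPKM in the CTRL replicates, and the groups overlapped. TIMP4 had a log2 difference of -0.32 with an SE of 0.14, with overlapping groups.

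Of 10 plasminogen genes besides PLAUR, 3 were higher and 7 lower, and the abundant ANXA2 and S100A10, which form a cell surface plasminogen receptor, had log2 differences of -0.02 and 0.00, and of -0.09 and -0.03 without EXO replicate 2. Of 13 rows of other remodelling proteases, 4 were higher and 9 lower, with CTSB and ADAM9 at log2 differences of -0.09 and -0.11, and of -0.12 and -0.21 without EXO replicate 2. HTRA1, a secreted serine protease that can antagonise TGF-beta family signalling, was at 65.4, 63.5 and 66.3 FPKM in EXO replicates 1, 2 and 3, against 78.2, 75.4 and 75.5 FPKM in the CTRL replicates. The HTRA1 groups did not overlap (log2 difference -0.23, limma adjusted p = 0.198), and neither did those of CTSB. Groups without overlap were found in 2 of the 13 rows of other remodelling proteases, or 15.4%, against 18.7% of all genes. For the plasminogen genes it was 2 of the 10 rows, or 20%.

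Without EXO replicate 2, 4 of the 94 rows (4.26%) had an adjusted p under 0.05 in limma, against 2.74% of all genes, and all 4 were lower in EXO. They were TAGLN (log2 difference -0.63), both rows named ADAMTS1 (-0.52 and -0.60) and MSX1 (-0.30), and ADAMTS1, a secreted metalloproteinase, was named after its values were seen. The first row of ADAMTS1 was at 26.4, 55.6 and 26.8 FPKM in EXO replicates 1, 2 and 3, against 34.1, 40.6 and 41.4 FPKM in the CTRL replicates. In all 4 rows EXO replicates 1 and 3 were the lowest of the 6 libraries, and EXO replicate 2 lay among or above the CTRL libraries. These 4 rows were picked because they passed with EXO replicate 2 left out, so nothing is read from the pattern.

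**Figure D4:**
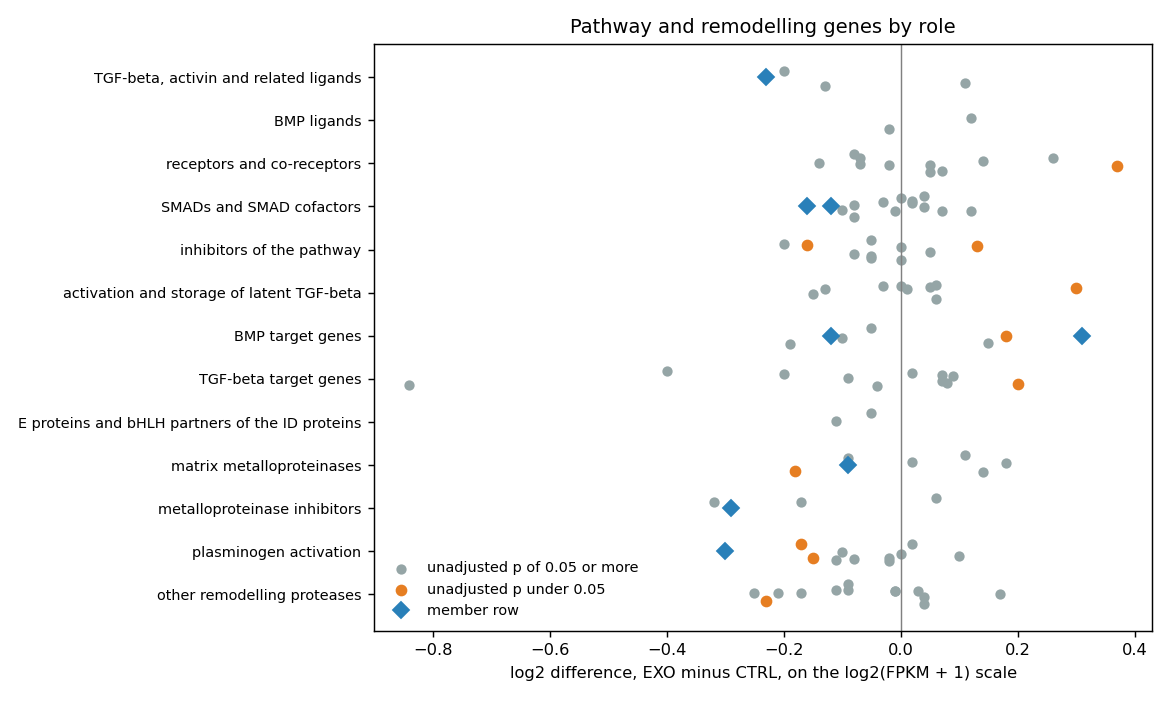
Horizontal axis, fitted log2 difference (EXO minus CTRL) on the log2(FPKM + 1) scale for the list genes, with roles down the page and a random vertical offset within a role. Grey and orange points are list genes with an unadjusted limma p at or above and under 0.05, and blue diamonds are the 8 member rows, shown without their p. The orange points were 10 of the 94 rows (5 on each side of 0). BMPR1B lay farthest to the right at 0.37 and COL1A1 farthest to the left at -0.84 (SE 0.99). The MMP7 diamond at -0.09 changes sign with quantile normalization.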

How the data were processed

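The deposited table holds 1 value per gene and library for 6 libraries. The authors' values were taken as FPKM, from the tools named and from the values, since no header gives the unit. Per the submitters' processing notes, bcl2fastq 1.8.4, TopHat and Cufflinks were used with the Sscrofa11.1 build. Of other versions and the annotation release, nothing is given in the sources used here. Of 10916 rows, 1 had no values, and the lowest value was 0.0882 FPKM. Counts and depth are unknown, so no counting intervals are given.

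Columns were matched to samples by title. Genes averaging 1 FPKM or more (10846, with 69 left out) were fitted as log2(FPKM + 1) with limma 3.58.1 in R 4.3.3 (intensity trend, two-sided, Benjamini-Hochberg over all genes tested, threshold 0.05). This scale understates changes of low genes. The code of the fit was run on simulated data with independent noise for each gene and library. That run checks the code and does not bear on the counts given here. Figures used Python 3.11.15 and matplotlib 3.10.9.

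The members, lists and tests were chosen with earlier results of these data known. Named genes are the members, genes that were called, the 3 most abundant measured genes of each list, and the 2 nearest to each member. Others are said to be named after their values were seen. List genes were matched by the symbol the reference table gives for the identifier, otherwise by the deposited symbol or a synonym. Of 10916 identifiers, 68.7% were in that table, with 5 of the 8 member rows. The identifiers of ID1, TIMP-2 and PLAUR were not, so those rows rest on the deposited symbol. Positions are those of RefSeq genes, matched by symbol. Alternatives were other pseudocounts, filters, scalings, variance models, a replicate block and leaving out each library.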

Additional observations from a re-analysis of the deposited data

How the results depend on the processing

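The count of genes past the threshold (0) was the same under the 9 alternatives that kept all 6 libraries. Leaving out 1 library gave 0 to 297 genes, with 297 without EXO replicate 2 and 1 without CTRL replicate 3. For the 94 rows of the pathway lists the count was 0 under those 9 alternatives and 0 to 4 when 1 library was left out, with 4 without EXO replicate 2. The log2 difference of TGFB1 was -0.13 with a pseudocount of 5, which shrinks low genes most. That of MMP7 was 0.02 with quantile normalization, and the cause was not tested. All other member differences moved by less than the replicate SD under the alternatives that kept all libraries. TGFB1 has no value with a filter at 5 FPKM, since its mean is lower. Leaving out 1 library gave log2 differences of -0.27 to -0.18 for TGFB1, -0.24 to -0.10 for SMAD2, -0.17 to -0.08 for the SMAD3 row, 0.27 to 0.35 for ID1, -0.25 to -0.05 for ID2, -0.32 to -0.26 for TIMP-2, -0.54 to -0.16 for PLAUR and -0.11 to -0.08 for MMP7. The SMAD2 row was lowest without EXO replicate 2 and highest without EXO replicate 3. The labels give no pairing of the replicate numbers. Correlations of same-numbered deviations were 0.16, 0.14 and -0.07 over 10846 genes, against -0.27 to 0.17 for differently numbered libraries. With 3 libraries per group, these values cannot decide whether the libraries were paired. The fit with the replicate number as a block called 0 genes and 0 list rows. With 3 libraries per group and unknown depth, small differences of low genes such as TGFB1 are the least certain.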
